A study of Mus musculus with 10 samples.

Results

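*Snorc* is listed in the deposited count tables as *3110079O15Rik*, the older symbol that RefSeq gives as its synonym. It was selected by its row name, as 1 of the 29183 genes listed for both cell lineages of the study, and was chosen for its level, which earlier results of these data had shown to differ between the lineages. Its levels by lineage and by cell group, and its relation to other genes across cells, are therefore given as descriptions without a test. The tests below concern other genes in cells with more or less *Snorc*.

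*Snorc* encodes a small transmembrane chondroitin sulfate proteoglycan made by chondrocytes, the cells of cartilage. Cartilage proteoglycans carry sulfated sugar chains that hold water within a mesh of collagen II, IX and XI fibrils. Chondroitin sulfate chains are attached to serines of the core protein that are followed by glycine.

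The study traced 2 skeletal lineages in C57BL/6 mice with a TdTomato reporter. *Grem1-TdT* mice carried a tamoxifen-inducible *Grem1-creERT* and were given tamoxifen chow for 2 weeks from 5 to 6 weeks of age, after which articular cartilage (AC) and growth plate (GP) of the hind limbs were cut out and TdTomato-positive cells were sorted into 96-well plates. *Lepr-TdT* mice of paired age carried a *Lepr-cre* that needs no induction, and their cells came from whole crushed bones through a sort that also removed CD45, Ter119 and CD31 positive cells, a step not listed for *Grem1-TdT* cells. Lineage, tissue, digestion enzyme and gate thus changed together and cannot be told apart. The sources do not say whether a plate held AC, GP or both, or how many mice each plate came from, so that spread and p-values refer to plates. After wells with fewer than 350 detected genes were left out, 684 cells of 8 *Grem1-TdT* plates (plates 1, 2 and 4 to 9) and 160 cells of 2 *Lepr-TdT* plates remained. The *Grem1-TdT* table used here runs in alphabetical order and stops at the symbol *Gm5764*, so that 29183 of the 50508 genes of the *Lepr-TdT* table had values in both lineages, and genes with later symbols were not analysed here. Totals, shares, the minimum of detected genes for *Grem1-TdT* cells, gene lists and ranks therefore refer to the listed genes and not to the whole library. A *Grem1-TdT* plate held 133289 to 179071 unique molecular identifiers (UMIs, each counting 1 captured transcript copy), and the *Lepr-TdT* plates held 64310 and 59981 UMIs over the shared genes, of 158749 and 145484 over all of theirs. All 96 well barcodes recurred on every *Grem1-TdT* plate, as well barcodes do, so cells were told apart by plate and barcode together.

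In GENCODE M21 (GRCm38, the same assembly as mm10), *Snorc* lies on the plus strand of chromosome 1 from 87470271 to 87475482, between *Gigyf2* and *Ngef*, 19474 and 1351 bases away. Its 3 exons span 87470271 to 87470411, 87475023 to 87475205 and 87475329 to 87475482, and the coding part of the 478-base transcript is 363 bases, or 121 codons including the stop. No other gene overlaps it, and none of the 690 stretches of 31 bases in its transcripts recurs in a transcript of another gene, so that its UMIs are not shared with a near copy. The coding sequence is shown because its serine-glycine codon pairs can be read from it. A pair in the coding sequence need not be a chain attachment site of the finished protein. The opening 300 coding bases, from GENCODE M21, are printed 5′ to 3′ with each serine-glycine codon pair in capitals, which lie at codons 15, 44 and 61.
Snorc: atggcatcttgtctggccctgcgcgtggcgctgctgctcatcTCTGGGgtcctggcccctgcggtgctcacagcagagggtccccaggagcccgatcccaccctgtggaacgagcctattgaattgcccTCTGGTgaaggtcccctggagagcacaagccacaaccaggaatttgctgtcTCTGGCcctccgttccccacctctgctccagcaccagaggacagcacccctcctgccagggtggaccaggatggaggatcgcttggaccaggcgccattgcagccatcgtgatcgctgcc
These 3 pairs are all that the whole coding sequence holds, and the count tables say nothing of whether any of them carried a chain.

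*Snorc* was found throughout *Grem1-TdT* cells and was close to absent from *Lepr-TdT* cells. The 8 *Grem1-TdT* plates held 10377 *Snorc* UMIs and the 2 *Lepr-TdT* plates held 1. Scaled as counts-per-million of the UMIs of the shared genes (CPM), plates 1, 2, 4, 5, 6, 7, 8 and 9 held 8013, 8103, 6543, 8728, 9419, 9049, 9170 and 10716 CPM, a mean of 8717 ± 1219 (SD, n = 8). The *Lepr-TdT* plates held 15.5 and 0 CPM, and a count of 0 on plate 2 allows up to 50.02 CPM (3 counts). No plate of one lineage came near a plate of the other. Pooled over plates, the level was 1091-fold higher in *Grem1-TdT* cells, with a 95% exact interval of 196 to 43098 that covers counting error only and is wide because it rests on 1 UMI.

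Nearly every *Grem1-TdT* cell contained the transcript. A *Snorc* UMI was found in 671 of 684 cells (98.1%, exact 95% interval 96.8 to 99.0), whose median depth was 1473 UMIs, and in 1 of 160 *Lepr-TdT* cells (0.625%, 0.0158 to 3.43) at a median of 505 UMIs over the same genes. The most in a single cell was 91 UMIs. The lone *Lepr-TdT* cell with *Snorc* also held 54 UMIs of *Cytl1* (a secreted cytokine-like protein abundant in cartilage), 8 of *Col2a1* (the collagen II chain), 4 of *Acan* (aggrecan, the main cartilage proteoglycan) and 1 of *Cnmd* (chondromodulin), next to 9 of the marrow stromal chemokine *Cxcl12*. *Lepr-TdT* cells as a whole held 2896 CPM of *Cytl1*, and 0.278 *Snorc* UMIs per 100 of *Cytl1*, against 4.73 and 45.2 in the *Grem1-TdT* cell groups described next. Checked against their markers, the *Lepr-TdT* plates held 26574 and 37012 CPM of a list of 6 marrow stromal markers, all 6 detected, against 0 to 126 CPM in either *Grem1-TdT* cell group. They also held 24124 and 30897 CPM of haematopoietic markers, despite the negative gate.

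*Grem1-TdT* cells were split by transcripts other than *Snorc*. Cells in which *Clu* (clusterin, a secreted chaperone), *Cilp* (cartilage intermediate layer protein) and *1500015O10Rik* (*Ecrg4*, a secreted peptide precursor) together had more UMIs than *Cnmd* are called Clu-side, and the rest Cnmd-side. This gave 414 Clu-side cells, 43 to 68 a plate, and 270 Cnmd-side cells, 26 to 40 a plate. A list of 11 articular cartilage markers summed to 43503 to 55705 CPM in Clu-side cells and to 4357 to 7498 CPM in Cnmd-side cells, but 3 of its genes made the split. A list of 6 growth plate markers, *Cnmd* among them, summed to 6089 to 14543 CPM and to 26448 to 40833 CPM. *Cnmd*, which made the split, gave means of 4598 and 25982 CPM of these sums. *Col10a1* (collagen X), another member, went the other way, at 5426 against 1432 CPM, lower in Cnmd-side cells on 7 of 8 plates. Of the 6, 4 including *Cnmd* were higher in Cnmd-side cells on 8 of 8 plates, beside 17.8% of the 2477 genes with a mean of at least 50 CPM. The others of the 4 were *Epyc* (55.9 CPM in Clu-side against 1182 CPM in Cnmd-side cells), *C1qtnf3* (128 against 1721 CPM) and *Alpl* (213 against 575 CPM). *Fgfr3* was higher on 6 of 8. The rise of the sum thus rests mostly on *Cnmd*, and the sum does not check the split. Endothelial markers were at 0 to 17.4 CPM in both groups, with *Emcn*, *Egfl7*, *Cldn5* and *Flt1* at 0.

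Both groups contained *Snorc*, and its share of the UMIs was higher in Cnmd-side cells on every plate. Clu-side cells held 5672, 5809, 5048, 6324, 6891, 7080, 6469 and 9786 CPM on plates 1, 2, 4, 5, 6, 7, 8 and 9, a mean of 6635 ± 1437. Cnmd-side cells held 9874, 9833, 8481, 10441, 10835, 11747, 11316 and 11290 CPM on the same plates, a mean of 10477 ± 1060. The groups overlapped only through plate 9, whose Clu-side cells were above the Cnmd-side cells of plate 4. Within plates, the log2 ratio of Cnmd-side to Clu-side cells was 0.68 ± 0.20 (8 of 8 plates above 0), 0.21 on plate 9 and 0.65 to 0.81 on the other plates.

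**Figure D1:**
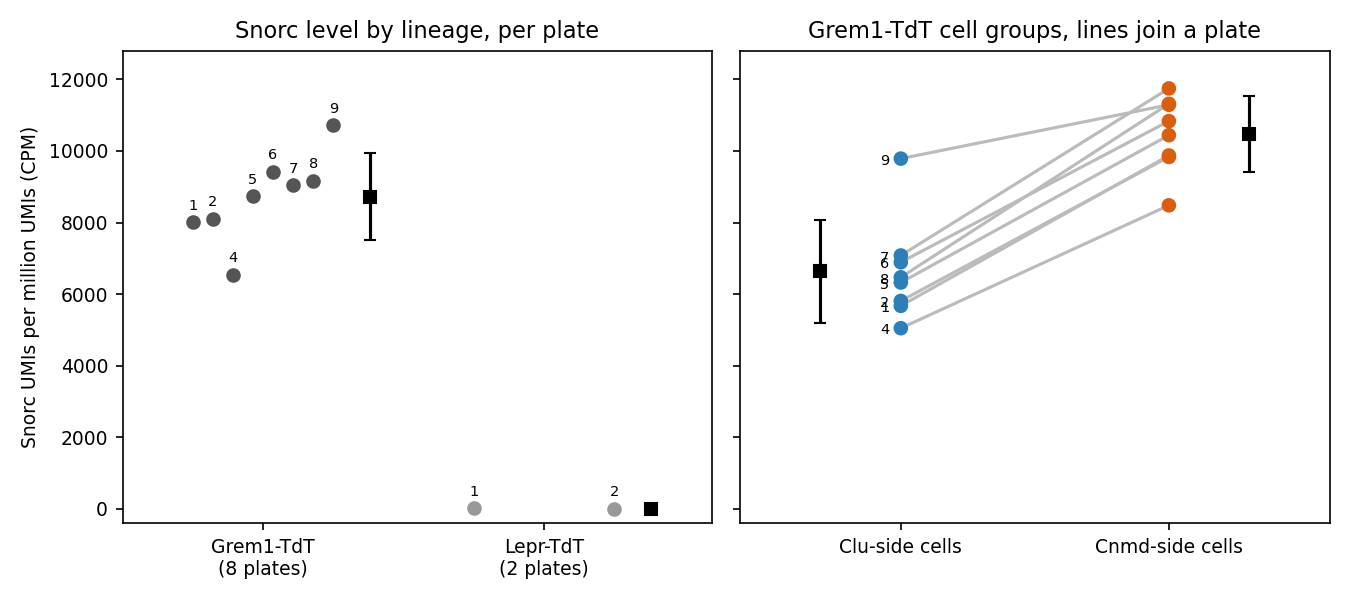
Snorc level in CPM over the shared genes (vertical axis, linear) by plate. Left, the 8 Grem1-TdT plates sit between 6543 and 10716 CPM and the 2 Lepr-TdT plates at 15.5 and 0 CPM. Right, lines join the Clu-side and Cnmd-side cells of a Grem1-TdT plate, and every line rises, least on plate 9. Black squares and bars are means and SDs over plates, small numbers name plates.

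This ratio was not unusual among genes. Of 2477 genes with a mean of at least 50 CPM, 17.8% were higher in Cnmd-side cells on 8 of 8 plates and 6.9% lower, and the median log2 ratio over all of them was 0.33. The *Snorc* ratio was larger than that of 66.9% of these genes and smaller than that of 820. A single gene, *Cytl1*, took 140278 ± 13259 CPM of Clu-side cells and 23131 ± 6447 CPM of Cnmd-side cells. With *Cytl1* and *Snorc* out of the denominator the *Snorc* ratio was 0.50 ± 0.20, and with TMM normalization, which moved the median over genes to 0.16, it was 0.51 ± 0.24, still above 0 on 8 of 8 plates. The listed cartilage collagens, *Col27a1* among them, stood farther apart than *Snorc*: all 7 were higher in Cnmd-side cells on 8 of 8 plates, with a median log2 ratio of 2.19. *Acan* had a ratio of 1.34 ± 0.20 and *Cnmd*, which made the split, 2.54 ± 0.41.

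Measured per cell the gap was wider, since Cnmd-side cells yielded more UMIs (median 2219 against 1217). A Clu-side cell held a median of 7 *Snorc* UMIs (10th to 90th percentile 2 to 16) and a Cnmd-side cell 21 (8.9 to 46), a ratio of means of 3.01 averaged over plates. More RNA in a cell and better capture of it cannot be told apart here. All 270 Cnmd-side cells had a *Snorc* UMI, and 13 of the 414 Clu-side cells had none. With each cell thinned to 796 UMIs, 95.8% of 354 Clu-side cells (mean 5.43 *Snorc* UMIs) and 99.6% of 262 Cnmd-side cells (mean 8.42) had one. The 60 and 8 shallower cells were left out of this comparison.

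**Figure D2:**
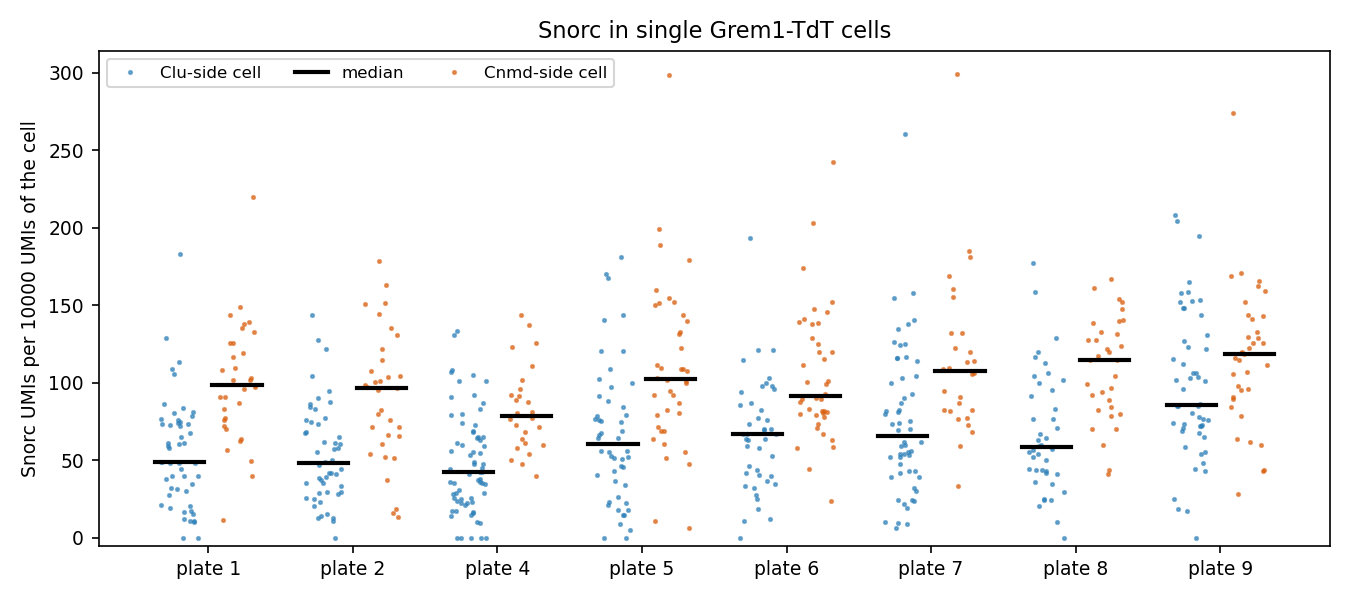
Snorc UMIs per 10000 UMIs of the cell (vertical axis) for each of the 684 Grem1-TdT cells, by plate and cell group. Points are cells and black bars medians. The median was higher in Cnmd-side than in Clu-side cells on each plate (plate medians 42.7 to 86.0 against 78.7 to 118.7), while cells of both groups covered much of the same range.

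The variation of *Snorc* from cell to cell was set beside that of other cartilage genes. In cells thinned to 796 UMIs, the squared coefficient of variation beyond that of counting was 0.214 ± 0.114 in Clu-side cells and 0.109 ± 0.052 in Cnmd-side cells (mean ± SD over plates). In the same Clu-side cells it was 0.831 ± 0.2 for *Clu*, 0.571 ± 0.066 for *Cilp* and 4.14 ± 1.76 for *Col10a1*, the collagen of hypertrophic chondrocytes. *Cnmd* varied less than *Snorc* by this measure in Clu-side cells (0.124 ± 0.070) and about as much in Cnmd-side cells (0.13 ± 0.083), where *Clu* and *Cilp* had SDs over plates larger than their means (0.082 ± 0.521 and 0.085 ± 0.560). *Clu*, *Cilp* and *Cnmd* made the split, which limits their range within each group. Their values are therefore no fair yardstick for *Snorc*. *Cytl1* was near *Snorc* in Clu-side cells (0.202 ± 0.081) and more variable in Cnmd-side cells (0.936 ± 0.825). *Acan* and *Col2a1*, which did not make the split either, had 0.422 ± 0.283 and 0.446 ± 0.179 in Clu-side cells. In Cnmd-side cells they had 0.133 ± 0.098 and 0.213 ± 0.049.

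The 58 cells whose summed Clu-side and *Cnmd* UMIs lay within 1 log2 unit of each other held 7445 *Snorc* CPM, between the 6518 CPM of the Clu-side cells and the 10846 CPM of the Cnmd-side cells farther from the limit. Of these, the 26 on the Clu side held 7987 CPM and the 32 on the Cnmd side 7090 CPM. These few cells were pooled over plates, which differ in *Snorc* level, so whether *Snorc* steps at the limit cannot be told from them. In 20 cells, 13 Clu-side and 7 Cnmd-side, osteoblast and haematopoietic markers together had more UMIs than the cartilage collagens and *Acan*. These cells held 2862 *Snorc* CPM, and 14 of the 18 that reached 796 UMIs (77.8%, exact 95% interval 52.4 to 93.6) still had a *Snorc* UMI at that depth. Without them the log2 ratio of the groups was 0.66 ± 0.19.

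Enzymes that build and sulfate chondroitin chains were found in both groups. Of the 21 listed, 11 reached a mean of 50 CPM over both groups, 1 higher and 3 lower in Cnmd-side cells on 8 of 8 plates. Over all 2477 genes with such a mean, 17.8% were higher and 6.9% lower on 8 of 8. With 11 genes these counts are no result about the enzymes as a set, and a gene can reach this mean through the group in which it is high. *Chst11*, a chondroitin 4-sulfotransferase, was higher in Cnmd-side cells on 8 of 8 plates (810 ± 280 against 155 ± 74.4 CPM). *Csgalnact2*, which extends the chain (94.9 ± 57.5 against 201 ± 97.2 CPM), and *Dse*, an epimerase that makes dermatan sulfate (106 ± 65.0 against 288 ± 182 CPM), were lower on 8 of 8. The other lower one, the chondroitin 6-sulfotransferase *Chst3* (12.6 ± 9.57 against 89.3 ± 51.8 CPM), reached the minimum only through the Clu-side cells. Levels this low rest on few UMIs a plate, as the SDs show.

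To find the genes that most resembled *Snorc* across cells, Pearson's r of log2(UMIs per 10000 + 1) was computed within each plate for 960 genes found in at least 20% of cells and averaged over the 8 plates. Genes with symbols later than *Gm5764* could not be ranked. Cells of a plate share a library, and *Snorc* shares rose with the UMIs of the cell (mean r 0.31 in all cells, 0.17 in Clu-side and 0.13 in Cnmd-side cells), so these values rank genes and carry no p. Over all *Grem1-TdT* cells the highest were *Gm11225* (0.42 ± 0.07, SD over plates), *Col2a1* (0.41 ± 0.07), *Cnmd* (0.41 ± 0.05), *Col9a3* (0.41 ± 0.11) and *Acan* (0.38 ± 0.16), each above 0 on 8 of 8 plates, as were 16% of the 960 genes. *Col11a2*, *Col27a1*, *Fosb* (an immediate early gene of the AP-1 family), *Gm37788* and *Col9a1* came next at 0.32 to 0.37. The lowest was *Clu* (-0.33 ± 0.06), followed by *Gas1*, a hedgehog co-receptor, *Dcn* (decorin), *Cilp* and *Fth1* (ferritin heavy chain) at -0.23 to -0.32. All 7 cartilage collagens were above 0 on 8 of 8 plates, with a median of 0.34 beside 0.06 over all genes.

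*Gm11225* is annotated as a processed pseudogene on chromosome 4 (70047157 to 70048205), and 12.8% of its 31-base stretches recur in transcripts of *Hibadh*, an enzyme of valine breakdown. Reads of parent and copy could have been split between them, so its identity is uncertain. *Gm37788* is a transcript model of unknown type inside *Rasal2* on chromosome 1, and sharing with its host is likewise uncertain. Some of its 31-base stretches also recur in transcripts of 134 other genes, the most in *AC160336.1* (4.19% of its stretches).

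These orders mix a difference between the groups with variation inside each, and inside the groups the order changed. In the 414 Clu-side cells, *Chad* (chondroadherin, a leucine-rich protein that binds collagen II and cells) came first with 0.42 ± 0.16, then *Cst3* (cystatin C, a secreted inhibitor of cysteine proteases) with 0.32 ± 0.16 and *Cytl1* with 0.32 ± 0.14. All were above 0 on 8 of 8 plates, as were 2.62% of 956 genes. The order went on with *Gm11225*, *Crispld1*, *Fxyd3*, *Fosb*, *Cd200*, *Frzb* and *Col9a3* at 0.21 to 0.25. *Cytl1* had an r of -0.15 ± 0.11 over all cells, below 0 on each plate, and was thus on the other side of 0 within Clu-side cells. The lowest in Clu-side cells were *Fth1* (-0.22 ± 0.18), *Fxyd6*, *Cd47*, *Fmod* (fibromodulin) and the processed pseudogene *Gm4761*, which shares stretches with *Rps7*.

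In the 270 Cnmd-side cells the order began with *Cnmd* (0.36 ± 0.26), *Comp* (0.36 ± 0.27, cartilage oligomeric matrix protein), *Col9a3* (0.35 ± 0.24), *Col9a1* (0.34 ± 0.25) and *Col27a1* (0.33 ± 0.30). *Gm11225*, *Acan*, *Fxyd2*, *Clec11a* and *Chad* followed at 0.29 to 0.32. Plates differed more here, where a plate had 26 to 40 cells: *Col9a3*, *Gm11225* and *Fxyd2* were above 0 on 8 of 8 plates, as were 2.42% of 952 genes, and the others on 7. Among the lowest were *Cxcl14*, *Col1a1* (the bone collagen I chain), *Eif4h* and *Actb* at -0.15 to -0.21. The cartilage collagens had a median of 0.29 in Cnmd-side and 0.15 in Clu-side cells, beside medians over all genes of 0.03 and 0.00. The chondroitin enzymes found in enough cells, 3 of 21, had medians of 0.03 and 0.06.

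**Figure D3:**
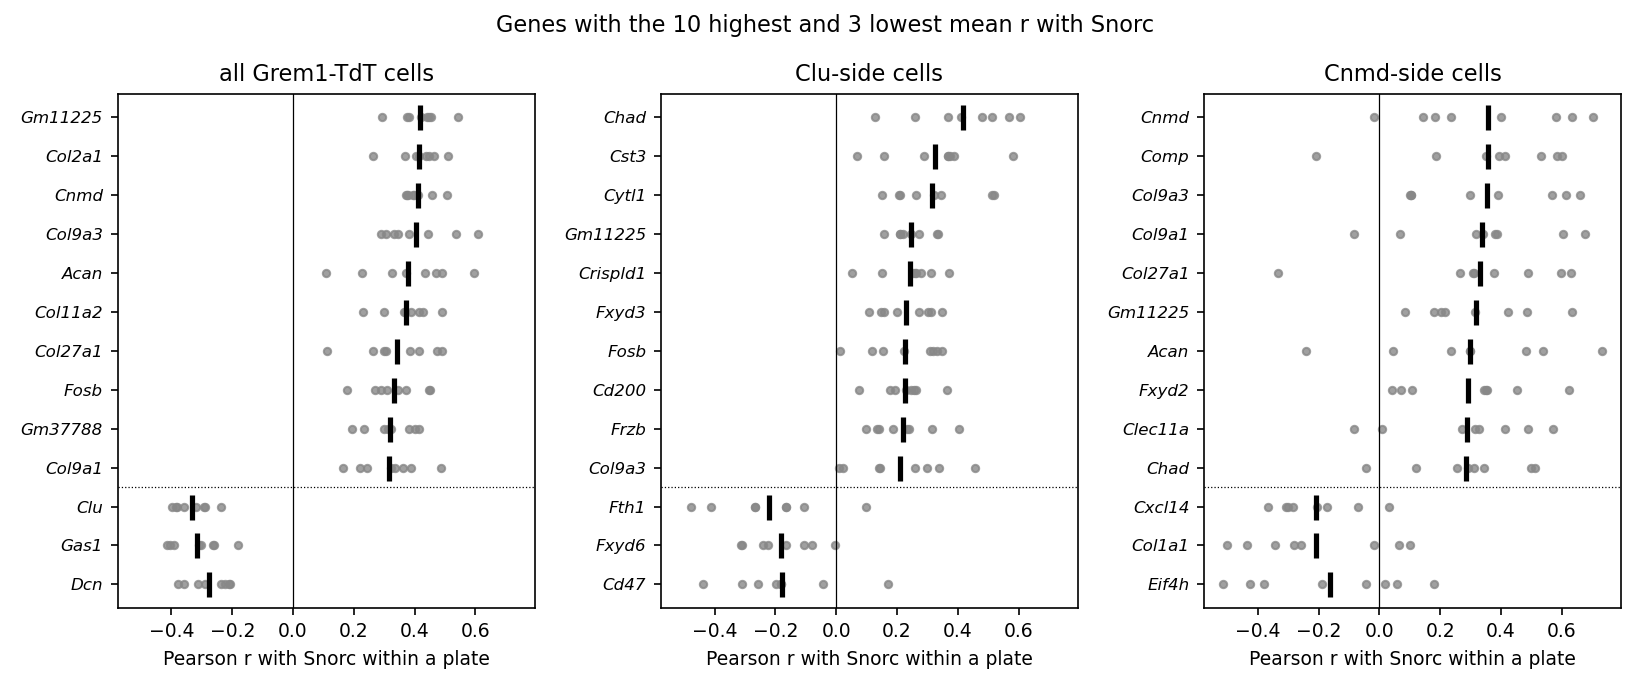
Pearson r with Snorc (horizontal axis) of the genes with the 10 highest and, below the dotted line, the 3 lowest mean r, in all Grem1-TdT cells (left), Clu-side cells (middle) and Cnmd-side cells (right). Grey points are the 8 plates and black ticks their mean. Gm11225, Col2a1 and Cnmd come first on the left, Chad, Cst3 and Cytl1 in the middle, and Cnmd, Comp and Col9a3 on the right, and the plates spread most in Cnmd-side cells.

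Since r within a plate is noisy in sparse counts, the cells of each group were also split on each plate at the median *Snorc* share into a Snorc-upper and a Snorc-lower set, their UMIs were summed, and all other genes were tested across the 8 plates with edgeR's quasi-likelihood test, with the plate as a block. Clu-side sets had 208 lower and 206 upper cells, with 3601 ± 1160 and 9648 ± 1938 *Snorc* CPM. Cnmd-side sets had 137 and 133 cells, with 7272 ± 916 and 13463 ± 1557 CPM. These *Snorc* levels made the split and are no result. Upper cells were deeper, with a median of 1248 against 1120 UMIs on the Clu side and 2391 against 2080 on the Cnmd side. Of the cells rich in bone or blood transcripts, 11 were lower and 2 upper on the Clu side, and 7 and 0 on the Cnmd side. The 9 haematopoietic markers listed in the table summed to 231 to 9099 CPM (median 710) in Clu-side lower sets and 0 to 943 CPM (median 247) in upper sets, with 9 and 8 of them found. On the Cnmd side they summed to 108 to 7413 CPM (median 301) and 61.6 to 465.6 CPM (median 277), with 8 found in each and *Alas2* at 0 over the group. The 6 osteoblast markers, all found in every set, summed to 795 to 98482 and 822 to 11761 CPM on the Clu side, and to 825 to 34398 and 574 to 15370 CPM on the Cnmd side. Results with thinned cells and without the cells rich in such transcripts are given at the end.

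Among Clu-side cells, those with more *Snorc* had more transcript of chondroadherin, cystatin C and several collagens and less fibromodulin. Of 390 genes tested, 17 (4.36%) passed an edgeR adjusted p of 0.05, 13 higher in the Snorc-upper set (3.33%) and 4 lower (1.03%). *Chad* held 16658 to 26523 CPM (median 23849) in the lower set and 31062 to 44197 CPM (median 35990) in the upper set. The sets did not overlap on any pair of plates, and the log2 difference was 0.78 (edgeR adjusted p = 0.000358). *Cst3* held 20625 to 36458 CPM (median 23385) and 27151 to 56921 CPM (median 41633). It was higher in the upper set on 8 of 8 plates, by 0.76 on the log2 scale (edgeR adjusted p = 0.000595), though the ranges overlapped.

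*Cd200*, a surface glycoprotein that restrains myeloid cells and a member of the articular marker list, held 495 to 1403 CPM (median 843) in the lower and 934 to 2472 CPM (median 1776) in the upper set. It differed by 0.98 on the log2 scale and in the same direction on 8 of 8 plates (edgeR adjusted p = 0.00107). *Frzb*, a secreted Wnt antagonist, differed by 1.10 (edgeR adjusted p = 0.036) from a median of 232 CPM to 537 CPM. *Dhx58os* differed by 0.87 (edgeR adjusted p = 0.0373), but it is annotated as antisense to *Dhx58* and overlaps *Zfp385c*, and since the sources do not state stranded counting its reads cannot be assigned with certainty. None of the 4 genes lower in the upper set fell on all 8 plates.

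Of the 7 cartilage collagens, all 7 had a log2 difference above 0 (median 0.44, beside -0.02 over all 390 genes), and 2 passed: *Col9a3* by 0.64 (8 of 8 plates, edgeR adjusted p = 0.0212) and *Col27a1* by 0.66 (7 of 8, edgeR adjusted p = 0.042). *Col2a1* had 0.48 (edgeR adjusted p = 0.0528). Among matrix proteoglycans and small leucine-rich proteins, *Chad* was higher and *Fmod* lower, the latter by -0.82 (edgeR adjusted p = 0.0225) on 7 of 8 plates, and the other 3 tested did not pass. *Acan* had 0.52 (edgeR adjusted p = 0.176). *Col10a1* rose from a median of 3244 CPM to 7104 CPM, by 1.15 (edgeR adjusted p = 0.00595) on 7 of 8 plates, and *Cytl1* from 130646 to 158933 CPM, by 0.35 (edgeR adjusted p = 0.0472) on 7 of 8. Of the genes that made the grouping, *Clu* had -0.41 and *Cnmd* 0.48 (edgeR adjusted p = 0.0559 for both), *Cilp* -0.17 (0.742) and *1500015O10Rik* 0.13 (0.776). *Clu* was higher in the upper set on 0 of 8 plates, *Cnmd* on 8, *Cilp* on 4 and *1500015O10Rik* on 3. The growth plate markers summed to a median of 7459 CPM in the lower and 13191 CPM in the upper sets, and the articular markers to 57531 and 48705 CPM, with overlapping ranges.

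The remaining called genes, named here after their values were seen or because they stood high or low in r, were *Fxyd3*, a regulator of the sodium pump (1.05), *Cox4i2*, an isoform of a cytochrome oxidase subunit (0.92), *Copz2* (0.73) and *Comp* (0.58) on the upper side. On the lower side were *Cfl1*, the actin-severing protein cofilin (-0.61), *Anxa1*, annexin A1 (-0.66), and *Cd47*, a receptor that restrains phagocytosis (-0.75). Of 9 articular markers tested, *Cd200* alone passed, and of 2 growth plate markers *Col10a1* alone. No immediate early (7 tested), glycolysis (3), endoplasmic reticulum folding (4) or BMP (3) list member passed. The 1 chondroitin enzyme tested did not pass either, and the medians of these lists were -0.39 to 0.20.

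**Figure D4:**
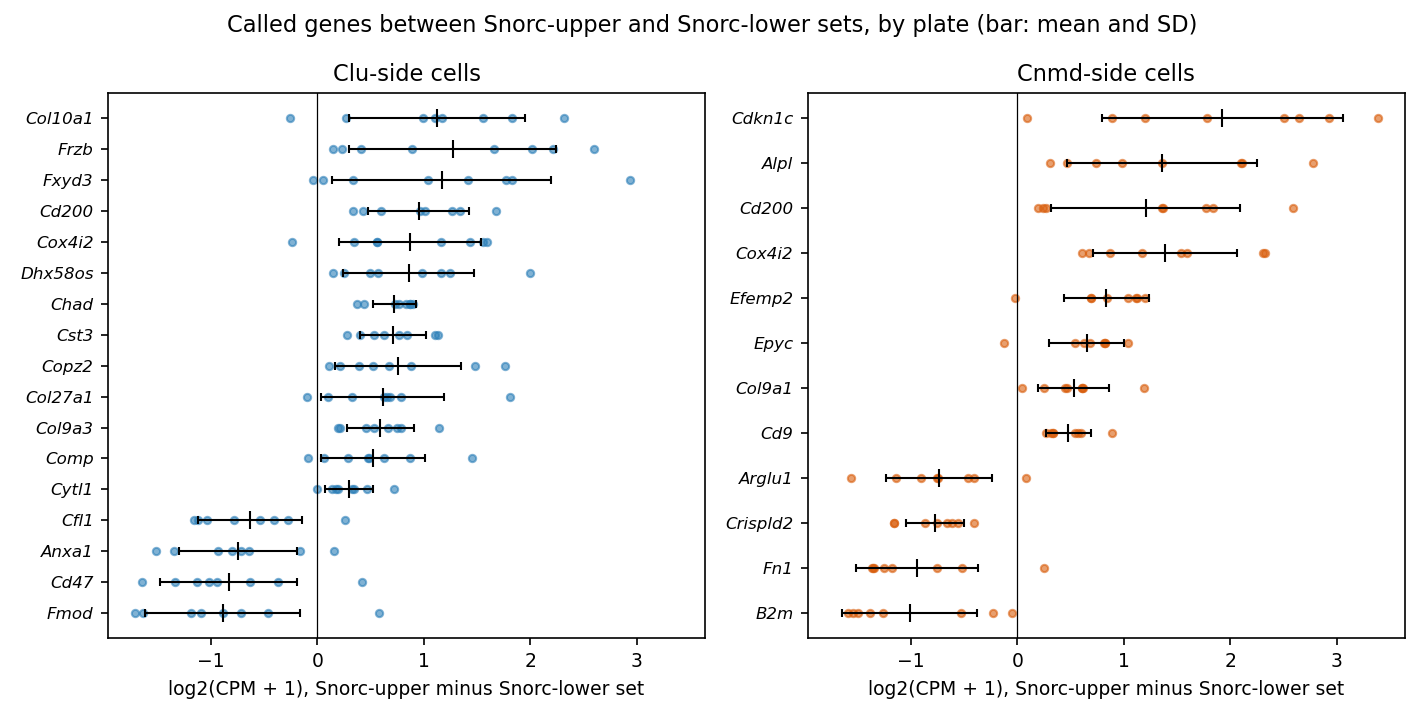
Difference in log2(CPM + 1) between Snorc-upper and Snorc-lower cells (horizontal axis) for the 17 genes called in Clu-side cells (left) and the 12 called in Cnmd-side cells (right). Coloured points are the 8 plates, black ticks and bars the mean and SD. Chad has the tightest spread on the left. Cdkn1c, Alpl, Cd200 and Cox4i2 lie above 0 on all 8 plates on the right.

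Among Cnmd-side cells, those with more *Snorc* had more *Cdkn1c*, *Alpl*, *Cd200* and *Cox4i2* and less *B2m*, *Fn1* and *Crispld2*. Of 602 genes tested, 12 (1.99%) passed, 8 higher (1.33%) and 4 lower (0.664%). *Cdkn1c*, the cyclin-dependent kinase inhibitor p57, held 81.5 to 1566 CPM (median 245) in the lower and 625.2 to 1938 CPM (median 1126) in the upper set. The ranges overlapped but every plate rose, by 1.71 on the log2 scale in the fit (edgeR adjusted p = 0.00826). *Alpl*, the alkaline phosphatase of mineralizing cartilage and bone, went from a median of 245 CPM (122 to 674) to 884 CPM (366 to 1181), by 1.28 on 8 of 8 plates (edgeR adjusted p = 0.0136). *Cox4i2* went from a median of 348 CPM to 835 CPM, by 1.20 (8 of 8, edgeR adjusted p = 0.00769). *Cd200* went from 182 CPM to 365 CPM, by 1.21 (8 of 8, edgeR adjusted p = 0.0136). The size of these differences varied between plates. For *Cd200* the log2 difference was 0.24, 0.20 and 0.27 on plates 1, 2 and 4, and 1.36 to 2.59 on plates 5 to 9. *Cdkn1c* ranged from 0.09 on plate 2 to 3.39 on plate 5, and *Alpl* from 0.31 to 2.78 on the same plates. *Cox4i2* ranged from 0.61 on plate 5 to 2.33 on plate 4. Low values in the lower sets rest on few UMIs. On plate 7 the lower set held 24743 UMIs in all, with *Cd200* at 40.7, *Cdkn1c* and *Cox4i2* at 81.5 and *Alpl* at 122 CPM.

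*Col9a1* was the only cartilage collagen past the threshold on this side, by 0.51 on 8 of 8 plates (edgeR adjusted p = 0.0462), while all 7 had a difference above 0 (median 0.42, beside -0.01 over the 602 genes). *Epyc* (epiphycan, a small leucine-rich proteoglycan of growth cartilage) differed by 0.65 on 7 of 8 plates (edgeR adjusted p = 0.0225). It was the 1 member called of 7 tested matrix proteoglycans, and with *Alpl* made 2 of 5 in the maturation list and 2 of 6 in the growth plate list. *Col2a1* (0.20), *Acan* (0.13), *Cytl1* (0.04) and *Col10a1* (-0.45) had edgeR adjusted p of 0.741, 0.753, 0.922 and 0.814. *Cnmd*, first by r, had 0.19 (edgeR adjusted p = 0.51). No member of the immediate early (7 tested), folding (4), glycolysis (2) or chondroitin enzyme (3) lists passed.

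Lower in the upper set on 8 of 8 plates were *B2m*, the light chain of class I major histocompatibility molecules, by -1.06 (median 774 CPM to 377 CPM, edgeR adjusted p = 0.00826), and *Crispld2*, a secreted glycoprotein, by -0.77 (edgeR adjusted p = 0.00826). *Fn1* (fibronectin) had -0.96 (median 9788 CPM to 5238 CPM, 7 of 8 plates, edgeR adjusted p = 0.00826). *Fn1*, *Cd9* (a tetraspanin, 0.47), *Efemp2* (fibulin-4, 0.78) and *Arglu1* (a splicing factor, -0.71), the last 3 completing the called genes, are named after their values were seen.

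*Cd200* and *Cox4i2* were called in both groups, 11.8% of the Clu-side and 16.7% of the Cnmd-side calls, but neither was called in both once the 20 cells rich in bone or blood transcripts were left out. Whether a gene moved differently with *Snorc* in the groups was tested as an interaction across the 667 genes of both. No gene passed (0%), with 46 at an unadjusted p under 0.05 and *Fn1* closest (edgeR adjusted p = 0.0648, with 0.47 in Clu-side against -0.96 in Cnmd-side cells). DESeq2 called 2, *Fn1* and *Cxcl14*. The difference for *Chad* was -0.37 (edgeR adjusted p = 0.727), so that a call on one side alone does not show that the sides differ.

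How far these calls depend on the processing was measured. The denominators below count the alternatives that gave a gene a value. *Chad* and *Cst3* kept an adjusted p under 0.05 under 15 of 16 alternatives each, *Col10a1* under 14 of 16, and on the Cnmd side *Cdkn1c*, *Alpl*, *Cox4i2* and *B2m* under 14 of 15. For *Cdkn1c*, *Alpl*, *Cox4i2* and *B2m* the alternative without a value was thinning, so their differences were not tested at equal depth. Other calls were less steady. On the Clu side *Comp* kept it under 5 of 16, *Cytl1* under 4 of 16, *Col27a1* under 4 of 15 and *Copz2* under 2 of 15. On the Cnmd side *Epyc* kept it under 9 of 16, *Cd200* under 7 of 10, *Col9a1* under 5 of 16, *Arglu1* under 3 of 15 and *Efemp2* under 3 of 14. Without the plate as a replicate block none was called on either side. Without the 20 cells rich in bone or blood transcripts, 7 genes were called on each side, among them *Chad* (0.63), *Cst3* (0.61), *Cd200* (0.82), *Col10a1* (0.97), *Col9a3* (0.61) and *Fmod* (-0.93), the 6 shared with the 17 above. The other 11 no longer passed: *Frzb* (0.73), *Fxyd3* (0.85), *Cox4i2* (0.66), *Dhx58os* (0.80), *Copz2* (0.58), *Col27a1* (0.51), *Comp* (0.39), *Cytl1* (0.25), *Cfl1* (-0.45), *Anxa1* (-0.30) and *Cd47* (-0.76). On the Cnmd side *Alpl*, *B2m*, *Cd9*, *Cdkn1c*, *Cox4i2*, *Crispld2* and *Fn1* remained. With each cell thinned to 796 UMIs, 177 and 139 genes could be tested, and 5 and 0 were called, *Chad* and *Cst3* among the 5.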

How the data were processed

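Single cells were sorted into 96-well plates and sequenced as 1 library per plate. The authors deposited whole-number UMI counts per gene and well in 1 table per lineage, not normalized. The submitters' processing notes name UMI-tools, STAR, featureCounts, SAMtools, Seurat and the build mm10 without versions or roles. The study's methods describe Seurat for filtering and clustering, and the strand setting of the counting is not given in the sources used here. The *Grem1-TdT* table used here is in alphabetical order and stops at *Gm5764*, an incomplete row that was dropped. All values therefore rest on the 29183 genes before it, and genes with later symbols were not analysed here.

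Members, gene lists, groups and tests were chosen with earlier results of these data known. Wells under 350 detected genes were left out, and no doublet caller was run. For each plate, UMIs were added up over the cells of a group. Snorc-upper and Snorc-lower sums were tested with edgeR 4.0.16 in R 4.3.3 (TMM, filterByExpr, quasi-likelihood test, plate as a block, Benjamini-Hochberg adjustment over all genes tested, threshold 0.05), leaving *Snorc* out of totals and fit. The fits were tested on simulated data with known changes. Alternatives used DESeq2 1.42.0, other filters, other splits and thinning. Log2 differences per plate used a pseudocount of 1 CPM, and r used 1 per 10000. Other steps used Python 3.11.15, numpy 2.4.6, scipy 1.17.1 and matplotlib 3.10.9.

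Both sums of a plate come from 1 library, which is where the pairing comes from. Their deviations from the set means correlated at 0.374 on average (lowest 0.171) in Cnmd-side and 0.290 (lowest 0.101) in Clu-side cells, above 0.1 on 8 of 8 plates in each. Intervals and floors cover counting error only.

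Genes named were *Snorc*, the grouping genes, *Cytl1*, *Acan*, *Col2a1* and *Col10a1*. To these were added the 10 highest and 5 lowest genes by mean r, the 5 called genes with the largest change in each direction among those moving alike on 8 of 8 plates with at least 50 CPM, and called members of the gene lists. A gene that this rule takes in is not reported here.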

Additional observations from a re-analysis of the deposited data

Results flagged for a closer look

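Plate 9 stood apart from the other plates in its Clu-side cells, which held 9786 *Snorc* CPM where the other plates held 5048 to 7080. Its log2 ratio of Cnmd-side to Clu-side cells was 0.21, below the 0.65 to 0.81 of the other 7. Without it the ratio was 0.75 ± 0.05.

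The 84 *Grem1-TdT* wells under the minimum of detected genes, which no comparison used, held 6658 *Snorc* CPM, far above the *Lepr-TdT* plates. A *Snorc* UMI was found in 85.7% of them (exact 95% interval 76.4 to 92.4) at a median of 502 UMIs, close to the median of 505 at which 0.625% of *Lepr-TdT* cells had one. They held 6.72 *Snorc* UMIs per 100 of *Cytl1*.

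Among 74 sets of 8 plate values of called and following genes, 4 had 1 plate far from the others, where chance alone gives about 1 in 20. *Efemp2* differed by -0.022 on plate 9 and *Epyc* by -0.13 on plate 7 between the Snorc-upper and Snorc-lower Cnmd-side cells, each below the other plates. *Col27a1* differed by 1.81 on plate 7 in Clu-side cells, above the other plates, and had an r with *Snorc* of -0.33 on plate 4 in Cnmd-side cells, where the other 7 plates were above 0.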

How the results depend on the processing

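Of 438 repeats of the called genes' differences none changed direction, and 197 lost the threshold. Without the plate as a replicate block, which ignores the pairing, 0 genes were called in Cnmd-side and 0 in Clu-side cells. DESeq2 called 5 and 10, no filter on low counts 41 and 27, and leaving out the cells rich in bone or blood transcripts 7 and 7. Thinning gave 0 of 139 and 5 of 177 genes tested, with fewer genes tested by construction. Splitting off the outermost cells of each plate gave 20 in Cnmd-side cells, and no minimum of detected genes gave 4 in Clu-side cells. Leaving out 1 plate gave 6 to 19 calls in Cnmd-side cells (6 without plate 8, 7 without plate 5, 19 without plate 4). In Clu-side cells it gave 4 to 17 (4 without plate 5, 6 without plate 2 or 4, 7 without plate 6, 10 without plate 8, 11 without plate 1 or 7). The test between the groups called 2 genes with DESeq2, 17 with no filter, 1 (*Fn1*) without the cells rich in bone or blood transcripts, and 0 to 1 without 1 plate (*Gm11225* without plate 7, *Fn1* without plate 9). Beyond the smaller number of genes or samples, the cause was not tested. The *Lepr-TdT* level was 0 CPM on plate 2 alone and 15.5 CPM on plate 1 alone. The share of cells with a Snorc UMI among *Grem1-TdT* cells was 96.7% with no minimum of detected genes. Of the 10 genes leading by r, thinning kept 6 in Clu-side and 6 in Cnmd-side cells, and Spearman's rho kept 5 in Cnmd-side cells. The r of *Fth1* in Clu-side cells was 0.033 after thinning, and that of *Actb* in Cnmd-side cells 0.0092 with no minimum of detected genes. Other results kept their direction. With 26 to 40 Cnmd-side cells a plate, low transcripts were not testable.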

Other observations

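Plates 1, 2 and 4 held less *Snorc* than plates 5 to 9 in both cell groups, a split by plate number chosen after seeing the data. Their Clu-side cells held 5048 to 5809 CPM against 6324 to 9786 CPM, and their Cnmd-side cells 8481 to 9874 CPM against 10441 to 11747 CPM, with no overlap in either. Other genes parted the same plates. In Snorc-lower Cnmd-side sets, *Crispld2* held 257 to 566 CPM on plates 1, 2 and 4 against 1670 to 3219 CPM on plates 5 to 9. The share of all genes that part these plates was not counted, so the split is not shown to be particular to *Snorc*. Within each set of plates the Cnmd-side cells stayed above the Clu-side cells, by a log2 ratio of 0.77 ± 0.03 on plates 1, 2 and 4 and 0.62 ± 0.24 on plates 5 to 9. What distinguishes these plates is not given in the sources used here.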
